A study of Mus musculus with 12 samples.

Results

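A set of 8 genes whose products resemble a canonical ribosomal protein were followed through sorted mouse spermatogonia: Rps4l, Rpl10l, Rpl39l, Rpl3l, Rps27l, Rpl22l1, Rpl36al and Rpl7l1. These 8 paralogues were chosen by symbol, with earlier results of these data known, and were matched to the Ensembl identifiers of a count table of 53715 genes. Each is set beside its parent, the canonical gene it resembles: Rps4x, Rpl10, Rpl39, Rpl3, Rps27, Rpl22, Rpl36a and Rpl7. All 8 paralogues and all 8 parents passed the filter on low counts, which left 19815 genes to test. Because the list was selected on these data, member levels and fold changes describe the samples, and no p-value is adjusted over the list alone.

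The samples were 12 libraries of spermatogonia, the mitotic germ cells of the testis that precede meiosis, from mice of a mixed C57BL6/129 strain. There were 4 groups of 3 libraries, WT and Tet1KO animals at 3 months of age and WT and Tet1KO animals at 11 months. TET1 belongs to the dioxygenases that convert methylated cytosine in DNA to its oxidised forms. The labels do not describe the knockout allele, the surface markers of the sort or whether animals were pooled. Each library came from 1000 sorted cells and was made with Smart-seq2, which reads cDNA over its whole length. Nothing states that libraries of 1 group are of different animals. A p-value here therefore covers the spread among libraries, which may be technical.

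Ribosomes hold a fixed set of proteins, and mammals encode most of them by 1 active gene and many silent pseudogenes. Several of these genes lie on the X chromosome, which is silenced in spermatocytes during meiosis, and autosomal copies made by retroposition are known to supply some of the proteins in male germ cells. Rpl10l is the best known of them and takes over from Rpl10 in meiosis, and the Rpl39l protein is found in ribosomes of the male germ line. Other paralogues have roles outside the testis: Rpl3l replaces Rpl3 in heart and skeletal muscle, Rps27l responds to the p53 tumour suppressor, and Rpl22l1 is held down by the Rpl22 protein.

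Total counts ran from 8325159 to 18223645 per library, and 3 counts, the limit that a count of 0 allows, came to between 0.161 and 0.402 CPM (counts divided by the TMM-scaled total of the library). This limit covers counting error only. On the first principal component, 2 libraries stood apart from the other 10, WT replicate 1 and Tet1KO replicate 2 of 3 months, with 29420 and 30010 genes detected against at most 26995. Tet1 had 0 to 18 counts per library, in either genotype, and does not check the labels. Germ cell genes were present in every library, with Dazl between 1647 and 2499 CPM and Ddx4 between 260.5 and 384.5 CPM. The summed level of 10 markers of undifferentiated spermatogonia ran from 136.9 to 289.5 CPM. That of 6 markers of differentiating spermatogonia ran from 508.1 to 1364 CPM. Markers of other stages and cells were present too. The summed level of 12 spermatocyte markers ran from 1273 to 3701 CPM, that of 14 spermatid markers from 367.9 to 3322 CPM and that of 17 Sertoli cell markers from 366.9 to 916.2 CPM. In such bulk samples, fewer cells of a type and less RNA per cell cannot be told apart.

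A pair of coding sequences shows how far paralogue and parent differ, and why reads of the 2 genes can be separated. Rpl39l lies on chromosome 16 and Rpl39 on the X chromosome, and the pair is shown because the autosomal copy was counted more often than its X-linked parent. Their coding sequences, read from the GENCODE vM21 transcripts without the stop codon and with the positions that differ in capitals, match at 130 of 153 bases (85%).
Rpl39l: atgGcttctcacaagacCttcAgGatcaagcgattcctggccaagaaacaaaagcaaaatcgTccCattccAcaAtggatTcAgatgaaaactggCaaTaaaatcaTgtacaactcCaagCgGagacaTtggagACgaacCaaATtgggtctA
Rpl39: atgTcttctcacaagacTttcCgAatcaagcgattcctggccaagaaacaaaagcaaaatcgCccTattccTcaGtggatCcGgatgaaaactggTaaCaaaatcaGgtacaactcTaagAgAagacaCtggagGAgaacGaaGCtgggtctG
The 23 differences lie on both sides of a run of 38 shared bases, from base 25 to base 62 of the frame. Rps27l on chromosome 9 and Rps27 on chromosome 3 are shown because they are the most abundant pair, and they match at 192 of 252 bases (76.2%).
Rps27l: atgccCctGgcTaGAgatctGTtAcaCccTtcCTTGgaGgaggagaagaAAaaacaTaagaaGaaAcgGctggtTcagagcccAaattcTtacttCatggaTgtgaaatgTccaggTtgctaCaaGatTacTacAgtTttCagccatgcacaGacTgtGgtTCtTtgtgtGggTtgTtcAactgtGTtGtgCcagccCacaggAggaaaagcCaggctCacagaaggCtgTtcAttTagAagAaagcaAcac
Rps27: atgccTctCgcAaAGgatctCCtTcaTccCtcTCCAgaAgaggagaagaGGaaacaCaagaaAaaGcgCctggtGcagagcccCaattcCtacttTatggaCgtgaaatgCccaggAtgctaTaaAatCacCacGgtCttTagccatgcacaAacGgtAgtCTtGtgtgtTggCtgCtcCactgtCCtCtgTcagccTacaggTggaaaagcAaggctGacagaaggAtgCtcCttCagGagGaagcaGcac
The 60 differences of this pair leave no shared run longer than 11 bases. Identity over the aligned coding sequence was 87.7% for Rpl36al, 84.7% for Rpl10l, 74.3% for Rpl3l, 69.4% for Rpl22l1 and 57.3% for Rpl7l1. Rps4l has no annotated coding sequence in GENCODE vM21, and 628 of the 789 coding bases of Rps4x (79.6%) were matched in its transcript.

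No window of 50 bases was shared between a paralogue and its parent in any of the 8 pairs. Parents shared many windows with transcripts of other genes. The share ran from 16.5% of windows for Rpl39 and 24.5% for Rpl22 to 92.1% for Rpl10 and 98.6% for Rps27. Which genes these were was not recorded, and genes that overlap at the same place were not set apart. Among the paralogues, Rpl39l and Rpl3l shared none, while Rpl22l1 shared 65.6% and Rpl36al 63.3%. The deposited counts kept only alignments with a mapping quality of at least 30, so reads that fit several places equally well may be missing, more so for parents than for most paralogues. Ratios of paralogue to parent are therefore a description of these counts. The levels of Rpl10, Rps27, Rpl3, Rpl36a, Rps4x (72.2% of windows shared) and Rpl7 (53.3%) are uncertain for this reason. Between Rpl22l1 and Rpl22 it is the paralogue that shares more. Where ratios are given as free of overlap between groups, no share over other gene pairs was computed. There are 2 paralogues that share exonic bases with another gene: Rpl36al shares 332 with Gm49383 on the same strand and Rpl22l1 shares 159 with Gm33051 on the opposite strand. Counting used no strand and gave such reads to both genes.

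Levels per length differed widely among the paralogues. In RPKM (CPM per kilobase of the deposited exonic length), Rps27l was highest in all 4 groups, with a group mean of 1369 in WT and 943.6 in Tet1KO at 3 months and of 1177 and 1307 at 11 months. Rpl39l followed with 358.2, 296, 277.6 and 323.2 RPKM in the same order of groups, and Rpl36al with 293.1, 214.8, 267.8 and 271.2 RPKM. Rps4l, Rpl22l1, Rpl10l and Rpl7l1 filled the middle, from 182.4 RPKM for Rps4l in WT at 11 months down to 39.8 RPKM for Rpl7l1 in WT at 3 months. Rpl3l, the muscle paralogue, was lowest throughout, with group means between 2.43 and 3.55 RPKM. Of the 7 neighbouring steps in this order, the libraries did not overlap in 5 for WT and 6 for Tet1KO at 3 months and in 3 and 4 at 11 months. The steps from Rps27l to the next gene and from Rpl7l1 to Rpl3l were free of overlap in all 4 groups, while Rpl39l and Rpl36al overlapped in 3 of them. These positions rest on the deposited exonic length, which is 1989 bases for Rpl22l1, 1353 for Rpl36al and 831 for Rpl39l. Their main transcripts have 552, 526 and 805 bases, so Rpl22l1 and Rpl36al would stand higher relative to Rpl39l by that length. The order by main transcript length was not computed.

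**Figure D1:**
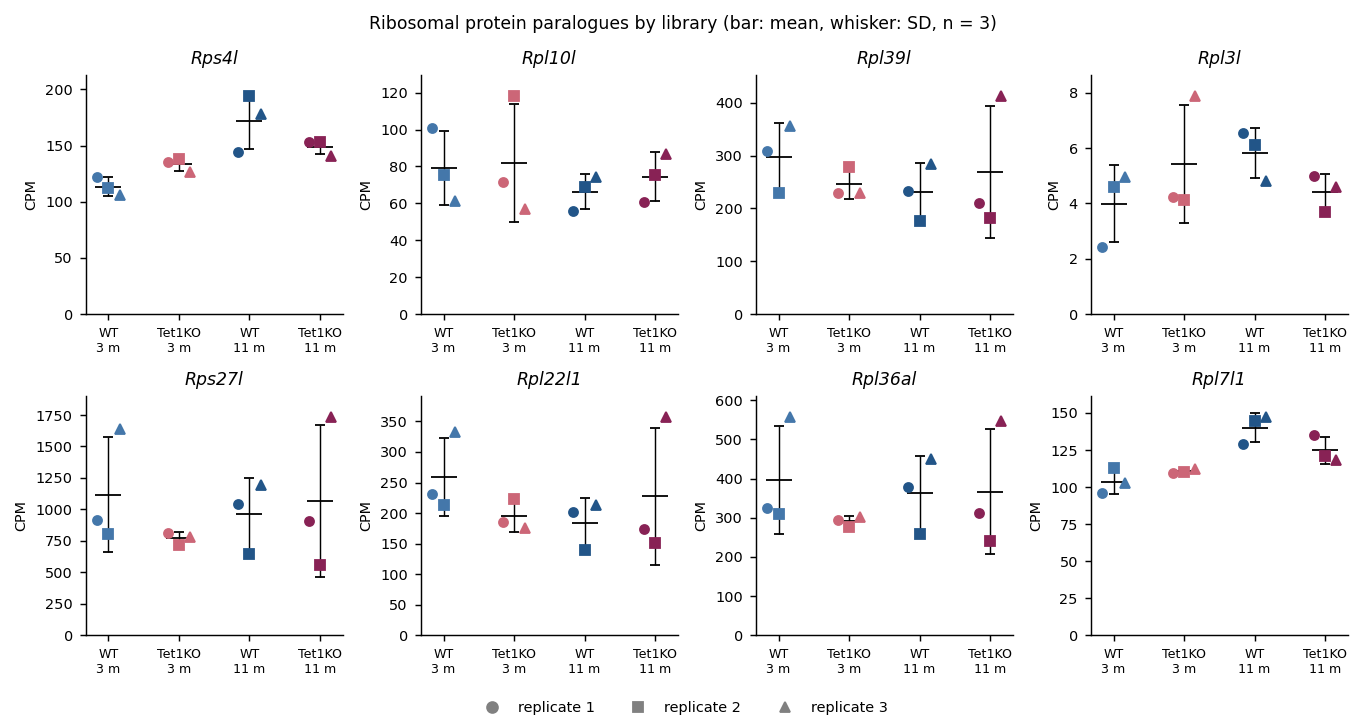
CPM of the 8 paralogues in each library, with the group in columns, the replicate as the symbol, and the mean and SD of 3 libraries as bar and whisker. Rps4l and Rpl7l1 are tightly grouped with their highest values in WT at 11 months, while Rps27l, Rpl36al, Rpl22l1 and Rpl39l each have their highest values in replicate 3 of WT at 3 months and of Tet1KO at 11 months.

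Rps4l (chromosome 6, 148354656 to 148355598, plus strand, mm10; a single exon, within the span of Tmtc1 on the opposite strand but sharing no exonic base with it) is an autosomal copy of the X-linked small subunit gene Rps4x. With replicates 1, 2 and 3 in order here and below, its values at 3 months were 122, 112 and 106 CPM in WT libraries and 135, 138 and 127 CPM in Tet1KO libraries. The values of 11 months were 144, 194 and 178 CPM for WT and 153, 153 and 141 CPM for Tet1KO. All 3 WT libraries of 3 months lay below the other 9 libraries, and the share of tested genes that do so was not computed. Rps4l was counted more often than its parent in every library. Per length it reached 2.43 to 8.23 times Rps4x, and still 1.45 to 4.92 times with the length of the main transcript in place of all annotated exons. The mean log2 ratio was 1.47 ± 0.16 (SD, n = 3) in WT and 1.75 ± 0.11 in Tet1KO at 3 months, without overlap, and 2.43 ± 0.55 and 2.03 ± 0.58 at 11 months, with overlap. Rps4x itself, with 72.2% of its windows shared with other transcripts, had 40.7 to 91.2 CPM.

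Rpl10l (chromosome 12, 66283379 to 66284401, minus strand; a single exon) is the autosomal copy of X-linked Rpl10, a large subunit gene. Its values were 101, 75.4 and 61.5 CPM in WT and 71.5, 118 and 56.8 CPM in Tet1KO at 3 months. At 11 months they were 56.0, 68.7 and 74.5 CPM in WT and 60.8, 75.6 and 87.0 CPM in Tet1KO. The 2 highest libraries were the 2 that stood apart, and the groups overlapped in every comparison. Rpl10l stayed below its parent in all 12 libraries, at 0.31 to 0.97 times Rpl10 per length and 0.12 to 0.38 times by main transcript length. The ratio was lowest in WT replicate 3 and highest in Tet1KO replicate 2 of 3 months.

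Rpl39l (chromosome 16, 10170226 to 10174911, plus strand) stood at 309, 229 and 356 CPM in WT and 230, 278 and 230 CPM in Tet1KO libraries at 3 months, then 232, 176 and 285 CPM and 211, 183 and 412 CPM at 11 months. Its highest value came from Tet1KO replicate 3 and its lowest from WT replicate 2 of 11 months, and no comparison was free of overlap. Against X-linked Rpl39, which encodes one of the smallest ribosomal proteins, it reached 1.86 to 4.43 times per deposited length. By main transcript length the range was 0.82 to 1.95 times, so that it was not above its parent in every library. The ratio was lowest in WT replicate 3 and highest in Tet1KO replicate 2 of 3 months, as for Rpl10l.

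Rpl36al (chromosome 12, 69182731 to 69184083, minus strand; a single exon) copies X-linked Rpl36a, another large subunit gene. It stood at 324, 310 and 556 CPM in WT and 294, 277 and 301 CPM in Tet1KO libraries at 3 months, which did not overlap, then 380, 259 and 449 CPM and 311, 242 and 548 CPM at 11 months. Its ratio to the parent was the steadiest of the 8. The 12 libraries spanned 1.80 to 2.25 times Rpl36a per length, and the SD of the log2 ratio over all 12 was 0.079, against 0.12 for Rps27l and 0.24 to 0.51 for the other 6. With reads of the Rpl36a pseudogenes added to the parent, the range was 1.54 to 1.93 times.

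Rps27l (chromosome 9, 66946086 to 66949516, plus strand) also held a steady ratio to its autosomal parent Rps27, a small subunit zinc finger protein gene. Its levels were 914, 801 and 1638 CPM in WT and 816, 713 and 780 CPM in Tet1KO libraries at 3 months, then 1041, 643 and 1197 CPM and 906, 561 and 1731 CPM at 11 months. Although its CPM varied 3.09-fold between libraries, the ratio ran only from 0.80 to 1.04 per length, and from 0.43 to 0.56 by main transcript length. Nearly all of Rps27 (98.6% of windows) is shared with other transcripts, so the level of the parent may be understated.

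Rpl22l1 (chromosome 3, 28805436 to 28807424, plus strand) had 232, 214 and 333 CPM in WT and 186, 224 and 175 CPM in Tet1KO libraries at 3 months, then 202, 140 and 213 CPM and 174, 151 and 357 CPM at 11 months. The 3 WT libraries of 11 months lay below those of 3 months, the nearest 2 at 212.6 and 213.9 CPM. Per deposited length it reached 1.07 to 1.86 times Rpl22, and 0.63 to 1.09 times by main transcript length, so the order of the 2 genes depends on the length used. The mean log2 ratio was 0.45 ± 0.30 (SD, n = 3) and 0.47 ± 0.37 in WT and Tet1KO at 3 months and 0.17 ± 0.08 and 0.30 ± 0.05 at 11 months.

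Rpl7l1 (chromosome 17, 46773907 to 46782656, minus strand), whose product acts in the assembly of the large subunit, had the narrowest range of CPM, 1.53-fold over the 12 libraries. It stood at 95.9, 113 and 103 CPM in WT and 109, 110 and 112 CPM in Tet1KO at 3 months. At 11 months it stood at 129, 145 and 147 CPM in WT and 135, 121 and 118 CPM in Tet1KO. All 6 libraries of 11 months lay above all 6 of 3 months. The share of tested genes that do so was not computed, and per ribosomal protein count, a scale used below, the ages overlapped in both genotypes. It was counted at 0.14 to 0.32 times Rpl7 per length, lowest in WT replicate 3 of 3 months.

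Rpl3l (chromosome 17, 24727820 to 24736143, plus strand) had 32 to 105 counts per library, or 2.41 to 7.87 CPM, above the limit of 3 counts in each. Its values were 2.41, 4.61 and 4.96 CPM in WT and 4.23, 4.13 and 7.87 CPM in Tet1KO libraries at 3 months, then 6.55, 6.11 and 4.82 CPM and 4.98, 3.71 and 4.59 CPM at 11 months. It reached only 0.016 to 0.046 times Rpl3 per length. The summed level of 10 striated muscle markers ran from 8.57 to 26.5 CPM. Of these markers, all had a count at 3 months and 1 had none in each group of 11 months. Their part in the Rpl3l counts was not tested.

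**Figure D2:**
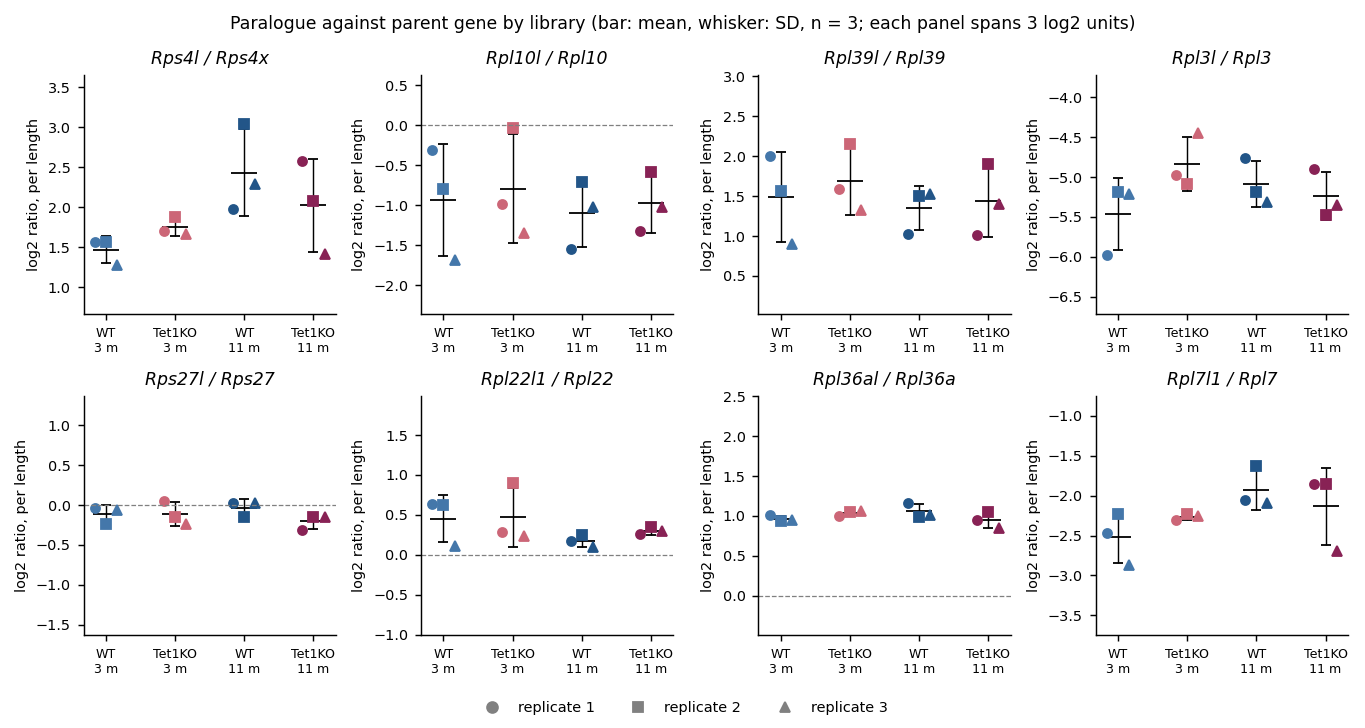
Log2 ratio of each paralogue to its parent per deposited exonic length in each library, with group means and SD (n = 3); each panel spans the same 3 log2 units and a dashed line marks equal levels. Rpl36al and Rps27l hardly vary, while the 12 libraries of Rps4l spread over 1.76 log2 units.

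The genotypes were compared first in the younger animals. At 3 months 4 paralogues had higher and 4 had lower values in Tet1KO, with a median log2 fold change of -0.11 against -0.02 over all tested genes. The 8 parents were all lower, with a median of -0.34, and so were 76 of the 79 listed cytosolic ribosomal protein genes, median -0.33, none past the test. Rps4l (log2 fold change 0.23 ± 0.13, SE) and Rpl36al (-0.45 ± 0.32) were the 2 paralogues whose groups did not overlap, where 6.94% of all tested genes were free of overlap. The lowest fold change was that of Rps27l (-0.54 ± 0.39) and the highest that of Rpl3l (0.44 ± 0.37). The Rpl3l value was 0.06 without Tet1KO replicate 3 and 0.18 without WT replicate 1. Its log2 ratio to Rpl3 was 0.62 higher in Tet1KO, without overlap, though the share of 6.94% is for CPM and not for ratios. None of the 8 passed edgeR's quasi-likelihood test after Benjamini-Hochberg adjustment. That test called 0 of 19815 genes (0%) in this and in each of the other 4 comparisons. Here 225 genes (1.14%) had an unadjusted p under 0.05, none of them a paralogue, and DESeq2 called 2 genes. Leaving out WT replicate 3 brought Rpl36al to -0.10 and Rps27l to -0.13. All 15 tested Sertoli cell markers were lower in Tet1KO, with summed levels of 383.6 to 434.4 CPM against 416.6 to 916.2 CPM in WT. So were 13 of 14 spermatid markers (756.4 to 1714 against 580.3 to 3322 CPM) and 13 of 14 leukocyte markers (212.7 to 438.8 against 228.3 to 488.3 CPM). Their part in these values was not tested.

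At 11 months the genotypes overlapped in CPM for all 8 paralogues, where 5.37% of tested genes were free of overlap. Between WT and Tet1KO libraries of the same replicate number, which deviated together at this age, Rpl10l was higher in Tet1KO in 3 of 3 pairs and Rpl3l lower in 3 of 3. The other paralogues had both signs. The share of all tested genes with 1 sign in 3 of 3 pairs was not computed, so these counts single out neither gene. With the replicate number as a block, edgeR gave 0.16 ± 0.20 (SE) for Rpl10l and -0.40 ± 0.32 for Rpl3l, neither past the test. The log2 ratio of Rpl22l1 to Rpl22 was 0.13 higher in Tet1KO, without overlap, though the share of 5.37% is for CPM and not for ratios. In Tet1KO 5 had higher values and 3 lower, with a median log2 fold change of 0.09 (all tested genes 0.02). Parents were higher in 7 of 8, with a median of 0.16, and 65 of 79 ribosomal protein genes were higher, median 0.11. Rpl22l1 had the highest value (0.30 ± 0.31, SE) and Rpl3l the lowest (-0.40 ± 0.37). Rps4l stood at -0.21 ± 0.13, the opposite sign to 3 months. An unadjusted p under 0.05 was reached by 326 genes (1.65%), by none of the paralogues, and DESeq2 called 3 genes. Without Tet1KO replicate 3 of 11 months, the fold changes of Rpl39l, Rps27l, Rpl22l1 and Rpl36al took negative values, from -0.19 to -0.39. All 7 peritubular myoid markers were lower (23.1 to 55.3 CPM summed in Tet1KO, 72.1 to 243 CPM in WT) and all 14 leukocyte markers higher (365.6 to 689.6 against 66.8 to 668.3 CPM). Sertoli cell markers were lower in 14 of 15 (366.9 to 425.1 against 407 to 587.6 CPM) and spermatid markers higher in 14 of 14 (491.9 to 2712 against 367.9 to 2924 CPM). Their part was not tested.

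Age was compared within each genotype. In WT, Rps4l and Rpl7l1 had higher values at 11 months and Rpl22l1 lower values without overlap, 3 of 8 paralogues where 11.5% of tested genes separated the ages. The fold change of Rps4l was 0.60 ± 0.13 (SE), with an unadjusted p of 0.000687 and an adjusted p of 0.774 in edgeR over all tested genes. That of Rpl7l1 was 0.43 ± 0.11, with an unadjusted p of 0.00264 and the same adjusted p. These were 2 of 1124 genes (5.67%) with an unadjusted p under 0.05, and DESeq2 called 0 genes. Their parents did not share the direction: Rps4x stood at -0.34 ± 0.24, without overlap, and Rpl7 at -0.17 ± 0.23. The Rps4l to Rps4x log2 ratio was 0.96 higher at 11 months and that of Rpl7l1 to Rpl7 0.60 higher, neither with overlap. The share of 11.5% is for CPM and not for ratios. The median over the paralogues was -0.18 (all tested genes -0.06), and 58 of 79 ribosomal protein genes were lower, median -0.11. Beside these values, 11 of 12 spermatocyte markers were lower at 11 months in WT, with summed levels of 1493 to 1989 CPM against 1638 to 3701 CPM at 3 months. Also lower were 13 of 14 spermatid markers (367.9 to 2924 against 580.3 to 3322 CPM), 13 of 15 Sertoli cell markers (407 to 587.6 against 416.6 to 916.2 CPM), 6 of 7 peritubular myoid markers (72.1 to 243 against 98.4 to 361 CPM) and 12 of 14 leukocyte markers (66.8 to 668.3 against 228.3 to 488.3 CPM). Their part in the result was not tested.

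In Tet1KO the same 2 paralogues, Rps4l (0.16 ± 0.13, SE) and Rpl7l1 (0.17 ± 0.11), were higher at 11 months without overlap, beside 6.19% of tested genes. Higher values were found for 6 of 8 paralogues, with a median of 0.17 (all tested genes -0.01), as had 7 of 8 parents (median 0.28) and 77 of 79 ribosomal protein genes (median 0.29). The highest was Rps27l at 0.47 ± 0.39, which became -0.07 without Tet1KO replicate 3 of 11 months. Spermatocyte markers were lower in 10 of 12 (1273 to 2547 against 1817 to 3325 CPM), Sertoli cell markers in 12 of 15 (366.9 to 425.1 against 383.6 to 434.4 CPM) and peritubular myoid markers in 7 of 7 (23.1 to 55.3 against 79.5 to 374 CPM). Spermatid markers were higher in 10 of 14 (491.9 to 2712 against 756.4 to 1714 CPM) and leukocyte markers in 14 of 14 (365.6 to 689.6 against 212.7 to 438.8 CPM). Their part was not tested. Of 462 genes (2.33%) with an unadjusted p under 0.05 none was a paralogue, and DESeq2 called 5 genes. In the test of whether the age difference depends on genotype, 311 genes (1.57%) had an unadjusted p under 0.05. Rps4l was the only paralogue among them, at -0.44 ± 0.18 (SE) with an unadjusted p of 0.0355 and an adjusted p of 0.99996 in edgeR, and DESeq2 called 0 genes. The 4 comparisons share their groups and are not independent of each other.

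**Figure D3:**
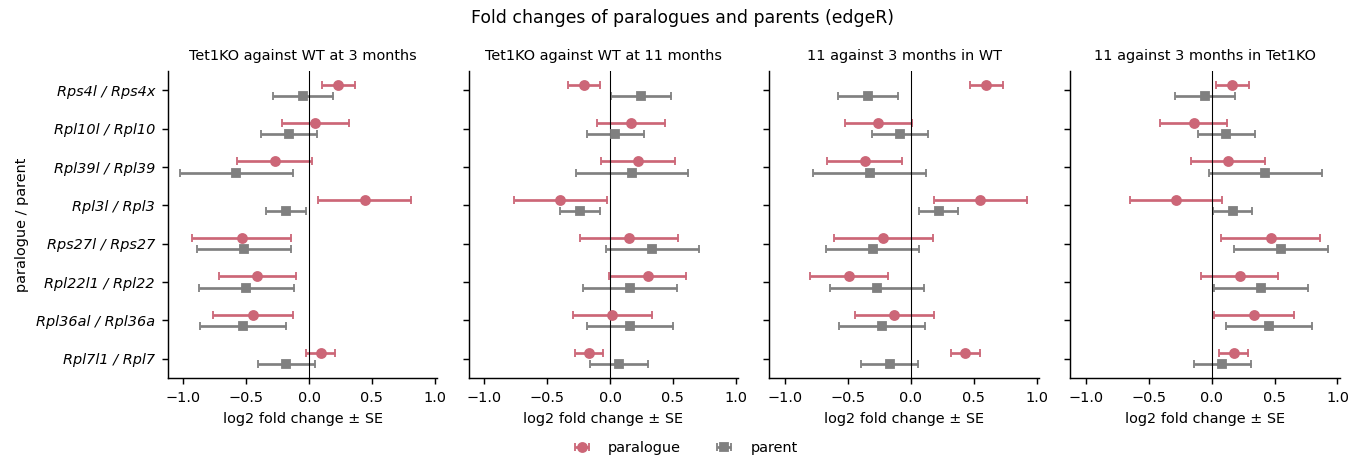
Log2 fold changes with SE of the paralogues (circles) and their parents (squares) in the 4 comparisons, from the edgeR fit of 12 libraries. In WT with age, Rps4l at 0.60 and Rpl7l1 at 0.43 lie above their parents at -0.34 and -0.17; no value passed the adjusted test.

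Across libraries the paralogues took 2 courses. Rps27l, Rpl36al, Rpl22l1 and Rpl39l varied with the summed level of the 79 cytosolic ribosomal protein genes, which ran from 42270 to 79120 CPM. Over the 12 libraries their Pearson correlation with that sum in log2 CPM was 0.97, 0.98, 0.87 and 0.84, and 0.97, 0.98, 0.94 and 0.96 over the 10 libraries that did not stand apart. The other 4 did not follow it: r was -0.19 for Rps4l, -0.03 for Rpl10l, 0.02 for Rpl3l and -0.02 for Rpl7l1 over 12 libraries, and -0.25, 0.29, -0.16 and -0.16 over 10. Among the parents, each left out of its own sum, Rpl3 (0.31 over 12, 0.24 over 10) and Rps4x (0.57, 0.63) followed it weakly too. The remaining parents ran from 0.84 for Rpl10 to 0.98 for Rpl36a over 12, so a weak relation is not particular to paralogues. These values share scaling factors and libraries and are a description with no test. The sum was highest in Tet1KO replicate 3 of 11 months, WT replicate 3 of 3 months (70950 CPM) and WT replicate 3 of 11 months (64800 CPM), libraries of 3 different groups.

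Set against the ribosomal protein sum, the spread of the first 4 became smaller and that of the other 4 larger. This change in spread follows from the correlations with the same sum in the same libraries. It is no separate evidence for the division into courses. The coefficient of variation of Rpl36al over 12 libraries was 30.3% in CPM and 8.82% per ribosomal protein count, and that of Rps27l 37.9% and 15.5%. For Rps4l it was 17.96% and 28.7%, and for Rpl7l1 13.5% and 23.3%. On this scale the lower value of Rpl36al in Tet1KO at 3 months was -0.14 in log2, and the groups overlapped. Rps4l remained without overlap between the genotypes at 3 months (0.49) and between ages in WT (0.65), whereas with age in Tet1KO it stood at -0.09 with overlap. Rpl7l1 was 0.50 higher at 11 months in WT and -0.08 in Tet1KO, both with overlap, so for Rps4l and Rpl7l1 the sign with age in Tet1KO depends on the scale. Rpl39l (-0.31) and Rpl22l1 (-0.43) were lower at 11 months in WT without overlap, which Rpl39l was not in CPM. This scale was added after the values were seen, and the share of tested genes free of overlap on it was not computed.

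**Figure D4:**
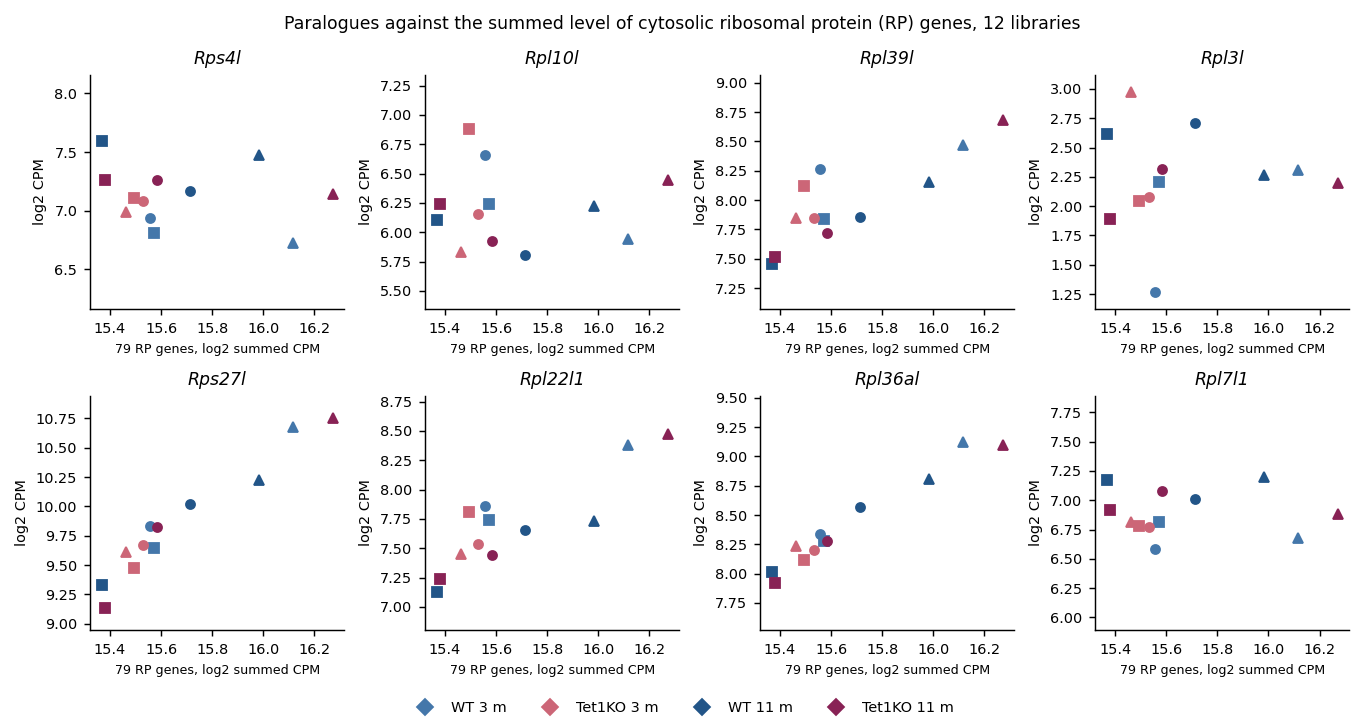
Log2 CPM of each paralogue against the log2 summed CPM of 79 cytosolic ribosomal protein genes, 1 point per library (colour for group, circle, square and triangle for replicates 1, 2 and 3); each vertical axis spans 2 log2 units. Rps27l, Rpl36al, Rpl22l1 and Rpl39l climb with the sum, with r from 0.84 to 0.98, and the other 4 do not.

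Rpl10l was set beside 9 other autosomal retrogenes with an X-linked parent, a class known for activity in meiotic and later germ cells. Pgk2, the glycolytic kinase gene of spermatocytes and sperm, stood at 183 and 167 CPM in the 2 libraries apart and at 14.4 to 73.0 CPM in the other 10. Gk2, a glycerol kinase gene, stood at 211 and 235.1 CPM against 1.54 to 58.9 CPM, and Cetn1, a centrin gene, at 198 and 187 CPM against 8.97 to 49.4 CPM. Rpl10l was highest in the same 2 libraries, at 101 and 118 CPM, though its 10 other values reached 87.0 CPM. Pdha2 (13.8 to 52.8 CPM) and Fam50b (1.07 to 15.8 CPM) were highest in these 2 libraries too, and G6pd2 had 0 to 3.11 CPM. Utp14b, Cstf2t and Rbmxl2 lay between 20.3 and 31.4, 32.0 and 51.7, and 2.85 and 14.6 CPM, and were not highest in the 2 libraries together. None of the 9 passed the edgeR test in any comparison.

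The 2 libraries apart also had high summed spermatocyte markers, 3701 and 3325 CPM, with all 12 markers counted in each group. Replicate 3 of WT at 3 months came next with 2985 CPM, and had 61.5 CPM of Rpl10l. Most of that sum, 2097 CPM, came from the single marker Sycp3, which had 1139 and 837.3 CPM in the 2 libraries apart. The other libraries lay between 1273 and 2547 CPM. Spermatid markers summed to 3322 and 1714 CPM in the 2 libraries apart. They summed to 2924 CPM in WT and 2712 CPM in Tet1KO replicate 1 of 11 months, where Rpl10l had 56.0 and 60.8 CPM. The part of spermatocytes and spermatids in the Rpl10l values was not tested. Without the 2 libraries the Rpl10l fold change between genotypes at 3 months was -0.10 in place of 0.05 ± 0.27 (SE), and with age in Tet1KO it was 0.22 in place of -0.14 ± 0.27.

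**Figure D5:**
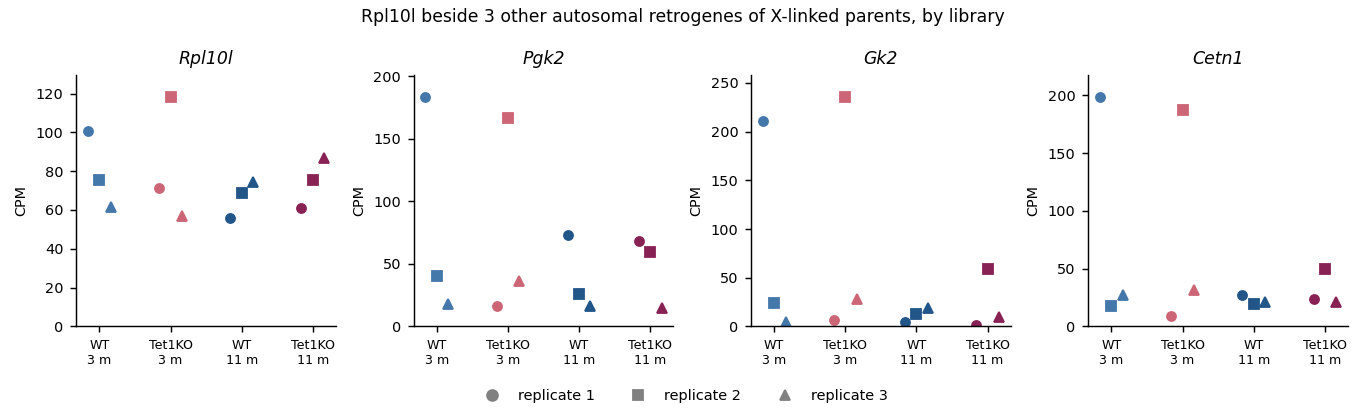
CPM of Rpl10l and of the retrogenes Pgk2, Gk2 and Cetn1 by library, with the group in columns and the replicate as the symbol. In all 4 panels the 2 highest points are WT replicate 1 and Tet1KO replicate 2 of 3 months.

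The genes whose log2 CPM most resembled each paralogue over 12 libraries were sought among 10342 well counted genes. For Rps27l they were Rpl41 (r = 0.99), Rpl24 and Gm28037, the first 2 ribosomal protein genes. For Rpl36al they were the overlapping Gm49383 (0.99), which shares its reads, and Cox6c and Mrps21, genes of the mitochondrial respiratory chain and ribosome. For Rpl22l1 the overlapping Gm33051 (0.995) came first, then Rpl9-ps6 and Gm5805, and for Rpl39l Tomm7 (0.98), Zfp560 and Nop10. Rpl10l was most like D1Pas1 (0.97), an autosomal DEAD-box helicase gene of spermatocytes, then Nab2 and Atxn7l3b. Over the 10 libraries that did not stand apart, the first gene was the same for Rpl10l (D1Pas1, 0.94), Rps27l, Rpl22l1 and Rpl36al. It was another for Rps4l (Tram1, 0.95, but 0.62 over 12), Rpl39l (Rpl9, 0.99), Rpl7l1 (Pradc1) and Rpl3l (Sccpdh, 0.945, but -0.31 over 12). Rps4l was most like Ino80e (0.91), Pradc1 and Mtif3, Rpl7l1 like Gm10698 (0.93), Zcchc17 and Gm47112, and Rpl3l like Bfar (0.93), Zfp263 and Txndc12. The highest of 10342 correlations over 12 libraries is large by selection alone, and these names are a description. They are no separate evidence for the 2 courses, which were drawn from the same libraries.

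Promoters were read for their content of CpG, the dinucleotide whose methylated form TET1 acts on; methylation itself was not measured. RefSeq windows (GRCm38.p6) of 250 bases before to 50 after each start were matched for 7 of the 8 paralogues and 6 parents, among 32851 windows with a median of 7 CpG. Rpl36al was the richest with 42 CpG, and 97.4% of all windows held at most that many. Rpl22l1 had 30, Rps27l 24 and 29 at 2 starts, Rpl39l 17, Rpl7l1 16 and Rpl10l 13. Rpl3l was the poorest, with 2 and 3 at its 2 starts, and 23.3% of windows held at most 2. The 2 extremes, picked after their counts were seen, are printed with each CpG in capitals.
Rpl36al, chr12:69184018-69184317, minus strand: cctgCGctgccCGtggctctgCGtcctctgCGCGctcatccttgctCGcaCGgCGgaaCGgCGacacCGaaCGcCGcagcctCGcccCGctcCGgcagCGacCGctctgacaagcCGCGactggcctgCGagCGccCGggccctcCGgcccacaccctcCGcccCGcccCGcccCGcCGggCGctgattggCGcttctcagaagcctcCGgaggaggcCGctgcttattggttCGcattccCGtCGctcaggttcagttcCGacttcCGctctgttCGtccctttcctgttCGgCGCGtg
Rpl3l, chr17:24727576-24727875, plus strand: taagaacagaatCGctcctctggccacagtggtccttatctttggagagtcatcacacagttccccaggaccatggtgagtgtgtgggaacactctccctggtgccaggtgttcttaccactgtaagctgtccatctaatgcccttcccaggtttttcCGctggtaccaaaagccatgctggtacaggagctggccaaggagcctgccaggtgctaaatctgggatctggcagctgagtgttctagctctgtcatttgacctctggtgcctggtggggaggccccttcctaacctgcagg
Rpl36al, with the most CpG, stood at 242 to 556 CPM, and Rpl3l, with the fewest, at 2.41 to 7.87 CPM. Between these extremes, Rpl22l1 with 30 CpG had a median of 104.1 RPKM over the libraries, and Rpl39l with 17 had 278 RPKM. Their deposited lengths are 1989 and 831 bases and their main transcripts 552 and 805 bases. The order of these 2 genes in level therefore depends on the length used. Rps27l, the most abundant, had fewer CpG than Rpl36al. A relation of CpG to level was not tested. Neither Rpl36al nor Rpl3l passed the edgeR test between genotypes at either age.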

How the data were processed

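The authors deposited raw counts, whole fragments per gene, for 12 libraries. Per the file headers they were made with featureCounts 1.6.2 on GENCODE vM17, without strand, with a mapping quality minimum of 30 and with fragments counted for every gene they overlap. HISAT2, SAMtools and the mm10 build are named per the submitters' processing notes, without order or version. Symbols came from GENCODE vM21 and matched 53620 of 53715 genes.

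Counts were fitted with edgeR 4.0.16 in R 4.3.3 (filterByExpr, TMM, 1 mean per group, robust quasi-likelihood F test, two-sided, Benjamini-Hochberg over 19815 genes at 0.05). Standard errors were derived from the F statistic. The procedure was tested on simulated data. Ratios of paralogue to parent took counts plus 0.5, each divided by its exonic length in the deposited table. Alternatives were other scalings and filters, DESeq2 1.42.0, limma-voom (limma 3.58.1), the replicate block, the prefix of the library code, and libraries left out. Named genes are the paralogues, parents, listed retrogenes, germ cell genes, and the 3 genes most correlated with each paralogue. The members and lists were chosen with earlier results of these data known.

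No 2 libraries of a group agreed within counting noise (chi-square per degree of freedom at least 9.85), so none was merged as 1 library deposited again. This does not show separate animals. At 11 months, libraries with the same replicate number deviated together (r = 0.371, 0.167 and 0.332), so the numbers were taken to pair WT and Tet1KO libraries there. This pairing comes from the data, not from the labels.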

Additional observations from a re-analysis of the deposited data

How the results depend on the processing

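The number of genes called by edgeR was 0 in all 5 comparisons under every scaling, filter, library set and block tried and under limma-voom, while DESeq2 called 2 and 3 genes between genotypes at 3 and 11 months and 5 with age in Tet1KO, none a paralogue. Rps4l and Rpl7l1 had the same sign in all 5 comparisons under the refitted models. Per summed ribosomal protein count, a scale chosen after seeing the data, signs changed with age in Tet1KO for Rps4l (-0.088), Rpl7l1 (-0.078), Rpl39l (-0.21) and Rpl22l1 (-0.13), and at 11 months for Rps27l (-0.012) and Rpl36al (-0.089). With age in WT, Rps4l ran from 0.51 to 0.73, with adjusted p from 0.377 to 0.9999, and Rpl7l1 from 0.38 to 0.50, with adjusted p from 0.559 to 0.9999. The level order kept its number of separated neighbours within 1.5 times under another scaling and without the 2 libraries apart. No other gene length was tried for it. Differences in the paralogue to parent ratio moved by less than the larger SD of the 2 groups in all 152 recomputations by setting. The same held for all 192 with a library left out. Leaving 1 of 3 libraries out cannot move a difference by that SD, and a change of length cancels in a difference. Those recomputations could therefore not have shown a move. Without the 2 libraries apart, 6 of 24 differences changed sign. With 1 library left out 25 of the 192 did so, all of differences of at most 0.28. The most were 6 of 16 without Tet1KO replicate 2 and 4 of 16 without WT replicate 3 of 3 months, and 5 of 16 without WT replicate 1 of 11 months. A term for the prefix of the library code changed no sign of a fold change. Only WT replicate 2 and Tet1KO replicate 1 of 3 months carried the second prefix. The term rests on these libraries and is partly confounded with age.

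Some fold changes of single paralogues changed sign, and the cause was not tested. With the 2 libraries apart left out, Rpl10l stood at -0.096 at 3 months and at 0.22 with age in Tet1KO. Under limma-voom, Rpl10l stood at -0.17 at 3 months and 0.089 with age in Tet1KO, Rps27l at -0.14 at 11 months and 0.050 with age in WT, and Rpl36al at -0.18 and 0.082 in the same comparisons. Without mitochondrial and ribosomal protein genes in the library sizes, Rpl36al stood at -0.00176 at 11 months. With the replicate block, Rpl36al stood at -0.031 at 11 months. The block changed no other sign and gave 0 calls. It was fitted within an age only, and was not run for the age comparisons. At 3 months the same numbers did not deviate together (r = -0.589, -0.182 and 0.296).

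With each library left out in turn, values ranged as follows. At 3 months Rpl10l ran from -0.31 to 0.27. At 11 months Rpl39l ran from -0.23 to 0.43, Rps27l from -0.39 to 0.46, Rpl22l1 from -0.19 to 0.52 and Rpl36al from -0.39 to 0.25. With age in WT Rps27l ran from -0.40 to 0.19 and Rpl36al from -0.30 to 0.22. With age in Tet1KO Rpl10l ran from -0.33 to 0.22, Rpl39l from -0.32 to 0.34, Rpl3l from -0.45 to 0.10, Rps27l from -0.067 to 0.78, Rpl22l1 from -0.26 to 0.45 and Rpl36al from -0.070 to 0.56. The interaction of Rpl10l ran from -0.10 to 0.48. Leaving out Tet1KO replicate 3 of 11 months changed the sign of Rpl39l, Rps27l, Rpl22l1 and Rpl36al both at 11 months and with age in Tet1KO. WT replicate 3 of 3 months did so for Rps27l and Rpl36al with age in WT and for Rpl10l at 3 months, Tet1KO replicate 2 of 3 months for Rpl10l at 3 months and with age in Tet1KO, Tet1KO replicate 3 of 3 months for Rpl3l, and WT replicate 2 of 11 months for Rps27l and Rpl36al at 11 months and with age in WT. The interaction of Rpl10l changed sign when replicate 1 of WT was left out, and likewise replicate 3 of Tet1KO, at either age. Rpl3l rests on 32 to 105 counts per library.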
